A study of Mus musculus with 2 samples.

Results

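The metalloproteinase genes *Mmp8*, *Mmp9*, *Mmp25*, *Adam8* and *Adam19* and the gene of a metalloproteinase inhibitor, *Timp2*, were followed through single-cell RNA-seq of mouse blood neutrophils. These 6 genes were chosen with earlier results of these data known, and were found by their symbol among the 32285 genes of the deposited count tables. Their UMIs (unique molecular identifiers, 1 per captured RNA molecule) were summed in each library over each cell type and each neutrophil cluster. One library came from WT mice (C57BL/6J) and one from APP/PS1 mice, which carry transgenes for mutant amyloid precursor protein and presenilin 1. In each, cells of 3 female mice aged 7 months were pooled after enrichment of neutrophils with the EasySep kit, which removes other blood cells by their surface proteins. No treatment was given. Since there was 1 library per genotype, no difference between the genotypes has a replicate check, no test was made, and pool, library and genotype cannot be told apart. The intervals given are 95% intervals that cover counting error only.

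Metalloproteinases are zinc-dependent proteases that cut matrix and cell-surface proteins. Neutrophils carry secreted ones in granules filled in sequence during their maturation in the bone marrow, with neutrophil collagenase (MMP8) in secondary granules and gelatinase B (MMP9) in the later gelatinase granules. MMP25 is held at the membrane by a lipid anchor, the ADAM proteins cross the membrane and shed or bind other surface proteins, and TIMP2 is a secreted protein that blocks the active site of metalloproteinases.

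Depth was similar in both libraries, at 92458623 UMIs from 17123 cells for WT and 84870864 UMIs from 17645 cells for APP/PS1, of which 14564 and 15208 cells passed the filters. Among these, 63 cell barcodes occurred in both libraries. Cell types were named from markers as neutrophil-like, monocyte-like and so on, and are called neutrophils, monocytes and so on for short. The 7594 neutrophils of the WT library were 52.1% of the kept cells and the 9600 of the APP/PS1 library were 63.1%, with median depths of 2551 and 2701 UMIs per cell. The 6 neutrophil markers together stood at 179108 CPM (UMIs of the gene scaled by all UMIs of the same cells) in WT neutrophils and at 151812 CPM in APP/PS1 neutrophils. The enriched blood still held other cells: 4022 classical monocytes, whose cluster also carried dendritic cell genes, 4778 nonclassical monocytes, 1183 NK cells, 904 T cells, 611 B cells, 402 erythroid cells and 116 basophils. A further 490 cells, in a cluster that scored highest for genes of squamous epithelium, and 72 cells with markers of more than 1 lineage were left unnamed.

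The promoters of *Mmp8*, *Mmp25* and *Adam8* are shown because the first 2 genes share a pattern among the neutrophils that the third does not have. Each run is the RefSeq promoter on GRCm38.p6, from 250 bases before to 50 bases after the start of the gene, on the strand of the gene, at chr9:7558179-7558478 (+), chr17:23645220-23645519 (-) and chr7:139992513-139992812 (-). For *Mmp8* and *Mmp25* this start is not the one that the GENCODE coordinates below give. Capitals mark matches, on either strand, to TTNCNNAA, a C/EBP motif, and to GAGGAAG, a motif of ETS factors such as PU.1.
Mmp8: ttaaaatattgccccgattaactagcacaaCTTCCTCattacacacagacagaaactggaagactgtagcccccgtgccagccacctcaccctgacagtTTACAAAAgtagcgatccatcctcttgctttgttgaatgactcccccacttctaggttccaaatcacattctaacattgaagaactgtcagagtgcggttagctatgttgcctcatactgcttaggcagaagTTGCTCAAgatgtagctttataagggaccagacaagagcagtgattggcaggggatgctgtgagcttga
Mmp25: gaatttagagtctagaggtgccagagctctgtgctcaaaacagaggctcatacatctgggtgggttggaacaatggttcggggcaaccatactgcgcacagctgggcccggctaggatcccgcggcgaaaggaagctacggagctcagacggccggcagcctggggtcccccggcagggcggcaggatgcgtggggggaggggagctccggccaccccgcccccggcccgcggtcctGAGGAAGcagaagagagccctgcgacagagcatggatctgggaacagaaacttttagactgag
Adam8: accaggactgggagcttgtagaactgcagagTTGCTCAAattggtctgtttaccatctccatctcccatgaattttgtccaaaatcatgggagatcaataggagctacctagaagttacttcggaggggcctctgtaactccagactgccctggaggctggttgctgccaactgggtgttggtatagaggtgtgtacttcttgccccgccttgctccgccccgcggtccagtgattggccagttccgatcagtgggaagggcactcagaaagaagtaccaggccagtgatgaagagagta
The *Mmp8* promoter held 2 matches to the C/EBP motif and 1 to the ETS motif, the *Mmp25* promoter 0 and 1, and the *Adam8* promoter 1 and 0. Of all 32851 promoters in the table, 40.7% held the C/EBP motif and 13.6% the ETS motif, so that these matches are common. The TATA box motif TATAAA, searched on either strand, was in 13.6% of promoters. In that of *Mmp8* this exact motif matched only on the strand opposite to the gene, in the run ctttataaggg. On the strand of the gene that run reads tataag, close to the motif. Looser forms of a TATA box were not searched, so the search does not show whether *Mmp8* has one. The GC box (CCGCCC), in 35.7%, was found in those of *Mmp25* and *Adam8*. No match to the AP-1 motif TGANTCA lay in these 3 windows.

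In neutrophils, all 6 genes were detected in both libraries. *Mmp9* stood at 1707 CPM in the WT and 1500 CPM in the APP/PS1 library. *Mmp8* stood at 559 and 526 CPM, and *Mmp25* at 79.7 and 73.0 CPM. Among the ADAM genes, *Adam8* stood at 456 and 350 CPM and *Adam19* at 131 and 110 CPM. *Timp2* stood at 233 and 197 CPM. After each cell was thinned to 1000 UMIs, so that cells of unequal depth could be compared, *Mmp9* had a UMI in 78.1% of WT neutrophils and in 73.3% of APP/PS1 neutrophils. The share was 32.2% and 27.8% for *Mmp8*, 34.0% and 28.1% for *Adam8*, and 18.5% and 15.9% for *Timp2*. *Adam19* had a UMI in 11.7% and 9.78% of the thinned neutrophils and *Mmp25* in 7.16% and 5.82%. B cells, which should lack the granule genes, were taken as a background, in which free RNA and doublets were not told apart. After the same thinning, 8.88% of WT and 3.58% of APP/PS1 B cells had a UMI of *Mmp9*. For *Mmp8* it was 0.987% and 1.95%, from only 3 and 6 cells. The *Mmp8* level summed over B cells went the other way, at 49.7 and 15.3 CPM. Median depths of B cells before thinning were 5005 and 5875 UMIs per cell. Without thinning, *Mmp9* was found in 95.7% and 93.7% of neutrophils.

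All 6 genes were over 1 log2 unit higher in neutrophils than in the monocytes of both kinds together. Of the 9495 genes with at least 200 UMIs, 11.3% were that much higher in neutrophils. The log2 ratio of CPM was 3.55 (3.52 to 3.58) for *Mmp9* and 3.52 (3.37 to 3.68) for *Mmp25*, and 2.88, 2.47, 2.43 and 2.36 for *Adam8*, *Mmp8*, *Timp2* and *Adam19*. With the 8% of cells of highest doublet score removed it was 4.78 for *Mmp9*, 4.62 for *Mmp25* and 3.72 for *Adam8*, outside the intervals from counting error. Neutrophils held 87.5% of all *Mmp9* UMIs of the kept cells and 75.2% of those of *Timp2*, the highest and the lowest share among the 6.

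Part of what the other cells showed was at the level that neutrophil RNA in their droplets would give. That level was taken as the neutrophil CPM of the gene times the ratio of *S100a8* and *S100a9*, the most abundant neutrophil genes, between the cell type and the neutrophils. It is an upper limit where the cells make *S100a8* or *S100a9* themselves, as monocytes can. *Mmp9* stayed near it in each of the 7 other named cell types, at 0.917 to 1.33 times the level. Its counting interval still lay above the level in some of them. Examples were nonclassical monocytes of both libraries and NK cells of the APP/PS1 library, at 211 CPM (194 to 228) against 174 CPM. The other 5 genes each went further beyond it in some cell type.

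*Mmp25* did so in T cells, at 87.1 CPM (73.8 to 102) in the WT and 64.0 CPM (53.6 to 75.9) in the APP/PS1 library, 13.2 and 8.94 times the level of neutrophil RNA and close to the neutrophils' own 79.7 and 73.0 CPM. The T cells fell into 2 clusters. The smaller, 90 WT and 75 APP/PS1 cells led by the gamma-delta T cell gene *Tcrg-C1* and by *Il17a*, held *Mmp25* at 291 and 272 CPM. The larger, led by *Cd8* genes, held it with 14 UMIs and 16 UMIs, the latter 9.71 CPM. The same small cluster held *Adam8* at 152 and 123 CPM, against 54.3 and 35.8 CPM in the larger one. The clusters were found with all metalloproteinase and TIMP genes left out of the features.

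*Timp2* was beyond the level of neutrophil RNA in NK cells, at 146 CPM (128 to 165) in the WT and 140 CPM (127 to 155) in the APP/PS1 library, which was 5.85 and 6.14 times that level. After thinning, 13.0% and 13.7% of NK cells had a *Timp2* UMI, against 2.30% and 2.28% of B cells. *Timp2* also stood above the level of neutrophil RNA in classical monocytes, at 2.78 and 3.74 times, and in nonclassical monocytes, at 1.61 and 1.66 times. In T cells it stood at 3.04 and 1.94 times the level. In B cells it stood at 1.79 and 3.23 times, from 49 and 50 UMIs, so that B cells are no plain background for this gene. *Adam8* was beyond the level of neutrophil RNA in basophils, at 268 CPM (219 to 326) and 184 CPM (131 to 250), 5.48 and 6.32 times the level, from 73 and 43 cells. It was above the level by less in T cells, at 2.14 and 1.57 times. In classical monocytes it stood at 1.98 and 1.70 times, and in nonclassical monocytes at 1.45 and 1.42 times. *Adam19* stood at 53.9 and 40.4 CPM in T cells, 4.97 and 3.75 times the level, at 28.5 and 32.8 CPM in B cells, 3.06 and 6.96 times, and at 30.7 and 26.9 CPM in classical monocytes, 3.56 and 4.5 times. *Mmp8* stood at 140 and 110 CPM in classical monocytes, 3.79 and 3.87 times the level, and in nonclassical monocytes at 1.05 and 0.933 times. With the cells of highest doublet score removed, these multiples were higher for *Mmp25* in T cells, *Timp2* in NK cells, *Adam19* in all 3 cell types and *Mmp8* in classical monocytes, for example 33.7 and 16.0 for *Mmp25* in T cells.

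**Figure D1:**
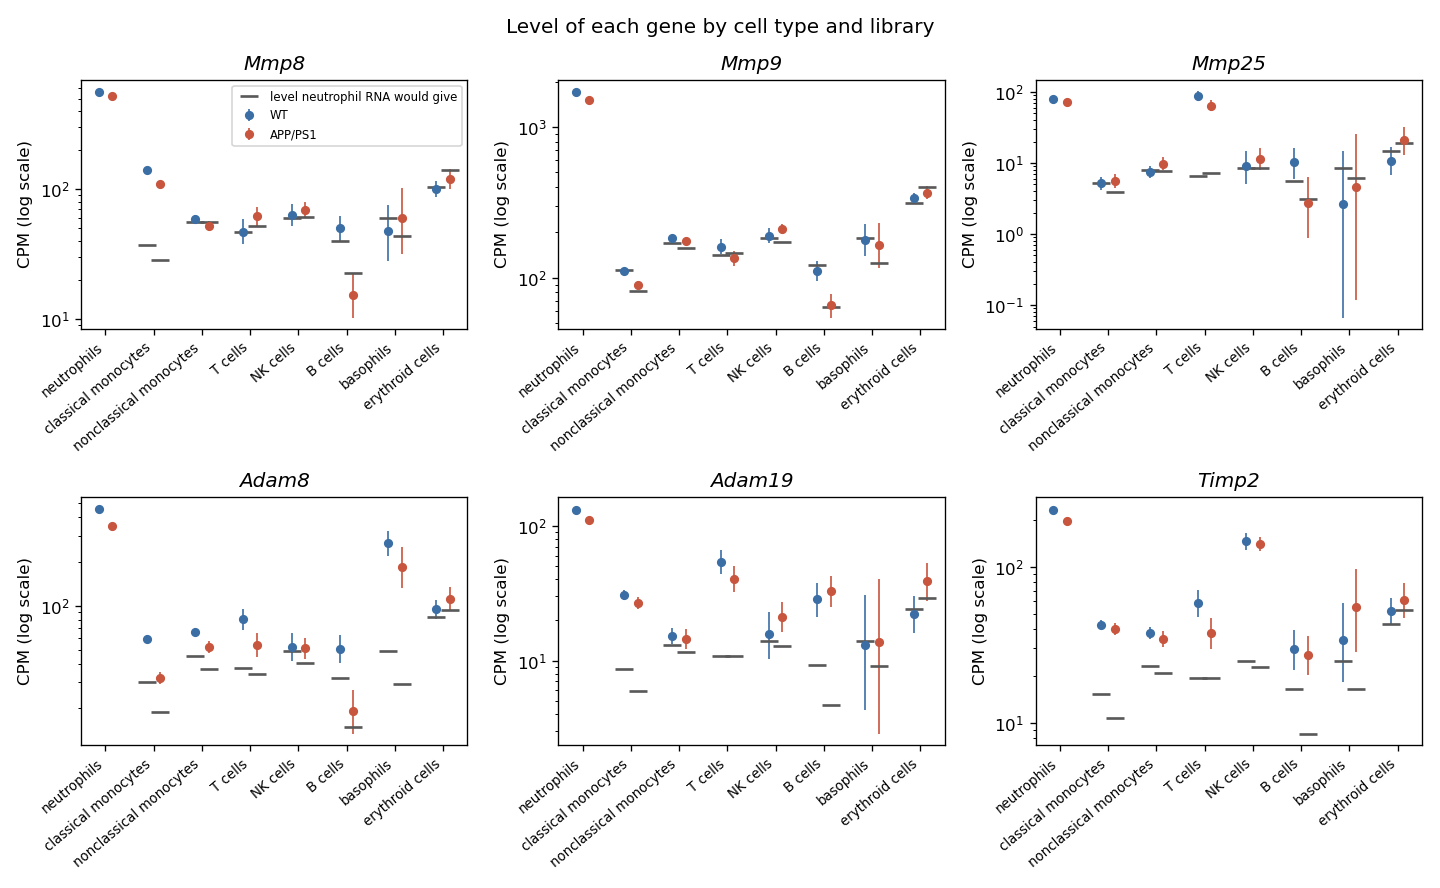
CPM on a log axis of each gene in 8 named cell types, in the WT library (blue) and the APP/PS1 library (red), with 95% Poisson intervals. Grey dashes mark the level that neutrophil RNA would give. *Mmp9* lies near the dashes in every type but neutrophils, while *Mmp25* in T cells, *Timp2* in NK cells and *Adam8* in basophils lie above them.

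Within the neutrophils, 8 clusters were found. Cluster 0 (6008 cells) was led by *Stfa2* and *Retnlg*, cluster 1 (4056) by platelet genes, cluster 2 (3284) by *Icam1* and *Clec4n*, cluster 3 (1778) by interferon-induced *Ifit* genes and cluster 4 (1559) by no marker list, with a median depth of 4791 UMIs. Cluster 5 (362 cells, 147 WT and 215 APP/PS1) was led by the secondary-granule genes *Camp*, *Ltf* and *Ngp*, which are made in the marrow before neutrophils mature. Cluster 6 (114) was led by mitochondrial genes. Cluster 7 (33) had the highest score for platelet genes and a median depth of 1249 UMIs, with the platelet gene *Ppbp* at 7003 and 5751 CPM and *S100a9* at 7434 and 29262 CPM, against 94747 and 81858 CPM in all neutrophils. Its markers thus went against neutrophils, but it was kept in the sums, and leaving it out moved none of the 6 genes' log2 ratios between the libraries outside its counting interval. With 1 library per genotype, a description by cluster is no test.

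Of the 6 genes, *Mmp8* and *Mmp25* exceeded the level of all other neutrophils by more than 1 log2 unit in cluster 5, as did 6.07% of all genes compared there. *Mmp8* stood at 2404 CPM (2298 to 2514) in WT and 3117 CPM (3023 to 3212) in APP/PS1 cells of cluster 5, and at 488 and 401 CPM in the other neutrophils. The log2 ratio was 2.30 (2.23 to 2.37) in the WT and 2.96 (2.91 to 3.01) in the APP/PS1 library. *Mmp25* stood at 269 and 316 CPM in cluster 5 and at 72.5 and 61.3 CPM outside it, which made the log2 ratio 1.89 (1.68 to 2.10) and 2.37 (2.21 to 2.52). *Mmp9* was higher by less, at 2467 CPM against 1678 CPM for the WT library and at 2539 CPM against 1449 CPM for the APP/PS1 library, which made the log2 ratio 0.56 and 0.81. *Timp2* stood at 0.40 and 0.15, with the APP/PS1 interval (-0.03 to 0.32) spanning 0. *Adam8* stood at -0.08 and -0.05, with intervals spanning 0, and *Adam19* was lower, at -0.40 and -0.54. Its cells, at median depths of 5204 and 6274 UMIs, were 1.94% and 2.24% of the neutrophils of the WT and the APP/PS1 library and gave 3.68% and 4.60% of all neutrophil UMIs. It held 15.8% and 27.2% of the *Mmp8* UMIs and 12.4% and 19.9% of the *Mmp25* UMIs of all neutrophils, against 3.50% and 4.45% of the *Adam8* UMIs.

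Cluster 2 lay at the other end. *Mmp8* stood there at 272 and 227 CPM, against 596 and 587 CPM in the other neutrophils, and *Timp2* at 124 and 107 CPM, against 247 and 216 CPM. Over both libraries the log2 ratio was -1.29 for *Mmp8* and -1.03 for *Timp2*, and 2.88% of all genes compared were over 1 log2 unit lower in cluster 2. The other 4 genes were lower there by less, at -0.53 for *Mmp25*, -0.43 for *Adam19*, -0.41 for *Adam8* and -0.19 for *Mmp9*. *Timp2* was also high in cluster 0, at 278 and 266 CPM against 206 and 170 CPM, a log2 ratio of 0.43 and 0.64. In single thinned neutrophils, *Mmp8* and *Timp2* were found together in 7.07% of WT and 5.38% of APP/PS1 cells, where independent detection would give 5.95% and 4.43%. *Mmp8* and *Mmp25* were found together in 2.78% and 2.09%, where it would give 2.31% and 1.62%. For *Mmp25* with *Adam8* the observed shares were 2.40% and 1.78% and the independent ones 2.44% and 1.64%.

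Per *Mmp9* UMI, cluster 5 held 0.975 *Mmp8* UMIs in the WT and 1.23 in the APP/PS1 library, cluster 0 held 0.328 and 0.336, and cluster 2 held 0.180 and 0.166.

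**Figure D2:**
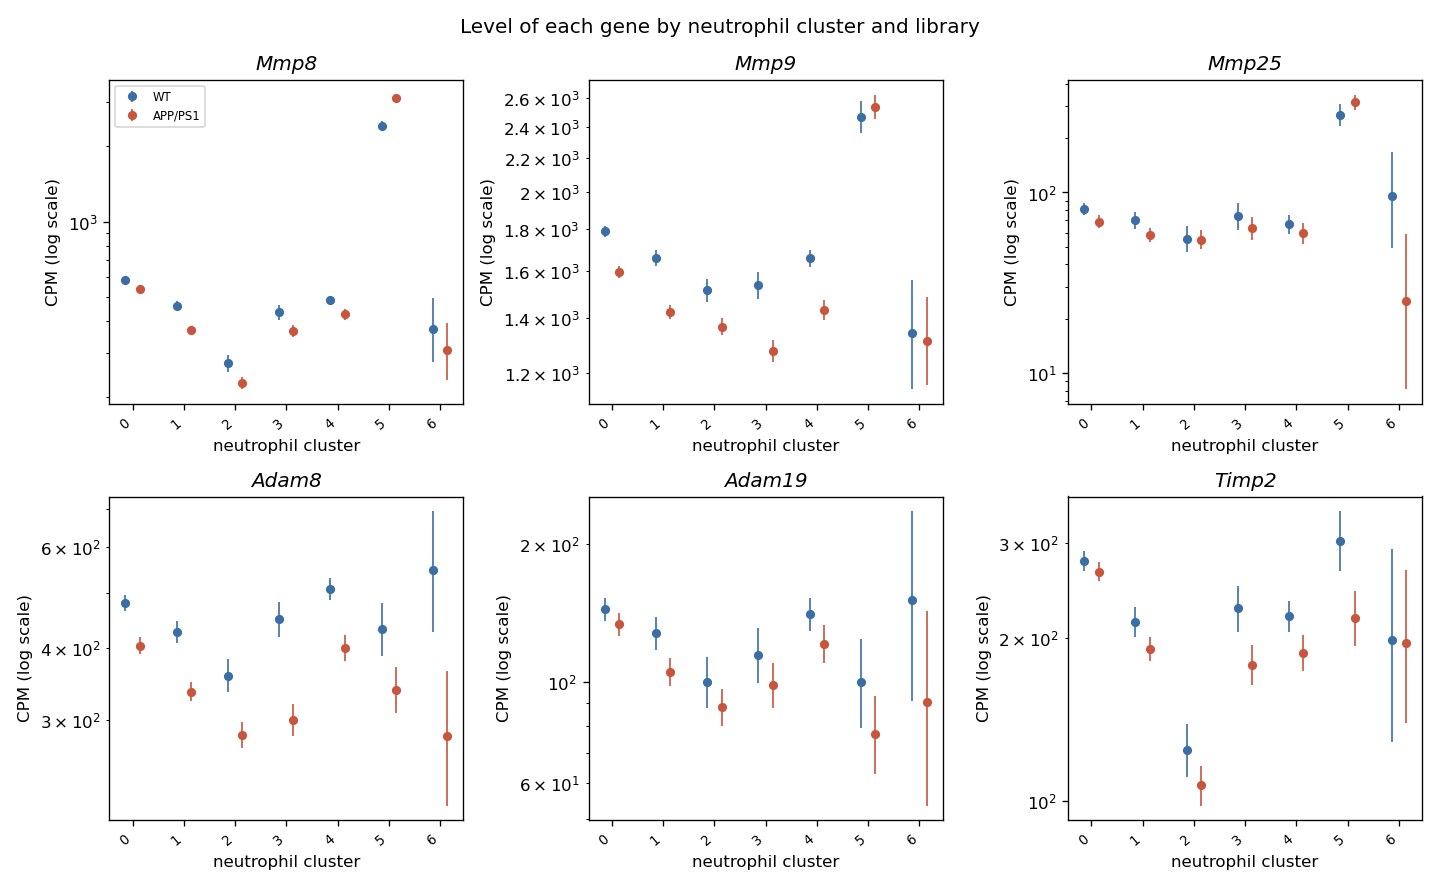
CPM on a log axis of each gene in neutrophil clusters 0 to 6, in the WT library (blue) and the APP/PS1 library (red), with 95% Poisson intervals. *Mmp8* and *Mmp25* peak in cluster 5, *Mmp8* and *Timp2* are lowest in cluster 2 among clusters 0 to 5, and *Adam8* has no peak in cluster 5.

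Each neutrophil was also thinned to 1000 UMIs and grouped by its UMIs of secondary-granule genes. The genes used also led the secondary-granule cluster. That cluster held 11422 of the 11520 *Camp* UMIs of WT neutrophils and 21062 of the 21440 of APP/PS1 neutrophils. The groups with most such UMIs thus draw largely on the same cells, and a similar split there is no independent check of the clusters. *Mmp8* stood at 457 CPM in the 7251 WT cells with none, at 730 CPM in the 259 with 1 to 2, at 2389 CPM in the 18 with 3 to 9 and at 2848 CPM in the 66 with 10 or more. In the APP/PS1 library the levels were 368, 573, 3136 and 3375 CPM, from 9044, 396, 22 and 136 cells. *Mmp25* went from 72.5 to 348 CPM and from 56.1 to 353 CPM between the first and the last of these groups, and *Mmp9* from 1661 to 2530 CPM and from 1431 to 2735 CPM. *Adam8* stood at 446 and 424 CPM at these ends in the WT and at 337 and 360 CPM in the APP/PS1 library, with overlapping intervals. *Adam19* was lower in the last group of the WT library, at 30.3 CPM (3.67 to 110) against 129 CPM in the first, and in the APP/PS1 library stood at 73.5 CPM (35.3 to 135) against 106 CPM, with overlapping intervals. Secondary-granule UMIs here were those of *Camp*, *Ngp* and *Ltf*.

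**Figure D3:**
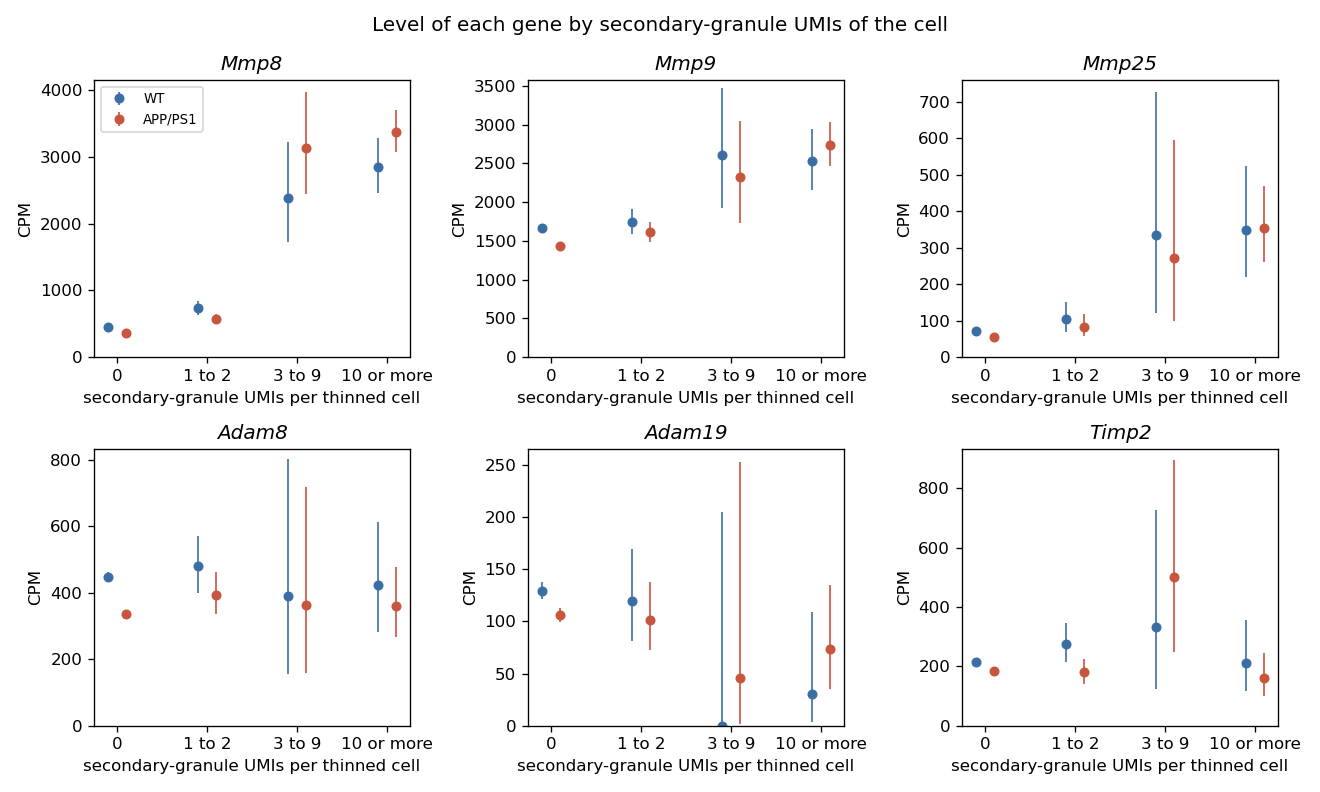
CPM of each gene in neutrophils thinned to 1000 UMIs and grouped by their number of secondary-granule UMIs, in the WT library (blue) and the APP/PS1 library (red), with 95% Poisson intervals. *Mmp8*, *Mmp9* and *Mmp25* are higher in the cells with 3 or more secondary-granule UMIs than in those with none, and the intervals of *Adam8* overlap between these groups within each library.

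Over all neutrophils, all 6 genes had a lower CPM in the APP/PS1 than in the WT library, and 0 of 6 were over 0.5 log2 apart. For that threshold the background was 5.66% of the 6148 genes that reached 200 UMIs in either library. The median ratio of all these genes was 0.06, with quartiles of -0.06 and 0.18. The share of them that were lower by any amount was not computed. *Adam8* had the largest difference, with a log2 ratio of -0.38 (-0.42 to -0.34), a size that exceeded that of 89.8% of the genes. The ratio was -0.25 for *Adam19*, -0.24 for *Timp2*, -0.19 for *Mmp9*, -0.13 for *Mmp25* and -0.09 (-0.12 to -0.05) for *Mmp8*. *Adam8*, *Adam19* and *Timp2* were lower in the APP/PS1 library in each of the 6 clusters with at least 50 cells per library. Of 5962 genes, 22.7% kept 1 direction, higher or lower, in all of them. *Mmp8*, *Mmp9* and *Mmp25* were lower in 5 of the 6, for which no share over all genes was computed. Among these lower values, the intervals spanned 0 for *Adam19* in clusters 0, 2, 3 and 5, for *Timp2* in cluster 0 and for *Mmp25* in clusters 2, 3 and 4. *Adam8* had its largest difference among these clusters in the interferon cluster 3, at 449 CPM in the WT and 300 CPM in the APP/PS1 library, a log2 ratio of -0.58 (-0.72 to -0.44). In that cluster 6.23% of the 1910 genes compared were over 0.5 log2 apart.

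The exception for *Mmp8*, *Mmp9* and *Mmp25* was cluster 5, where *Mmp8* was higher in the APP/PS1 library, with a log2 ratio of 0.37 (0.30 to 0.45). The intervals of *Mmp9* (0.04, -0.04 to 0.12) and *Mmp25* (0.23, -0.01 to 0.47) spanned 0 there, and *Timp2* stood at -0.48 (-0.73 to -0.23). Of the 7 secondary-granule genes that could be compared over all neutrophils, *Ltf* (0.58) and *Chil3* (0.56) were over 0.5 log2 higher in the APP/PS1 library, as were 3.22% of all genes. *Camp* stood at 0.46 and *Ngp* at 0.43, which was the median of the 7. *Cd177* and *Cybb* stood at 0.02 each and *Lcn2* at -0.23. The 5 genes listed for gelatinase granules were *Itgam*, *Slc11a1*, *Hp*, *Slpi* and *Arg2*. Their place in these granules was not checked, so no contrast between kinds of granule is drawn. They had a median of -0.10, from -0.43 for *Slpi* to 0.03 for *Hp*, and 0 of them were over 0.5 log2 apart. With the platelet-gene clusters (1 and 7) and the secondary-granule cluster left out, *Mmp8* stood at -0.26 rather than -0.09. The 6 T cell markers summed to 11.3 CPM in neutrophils of the WT and 54.5 CPM in those of the APP/PS1 library, and their part in these ratios was not tested.

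**Figure D4:**
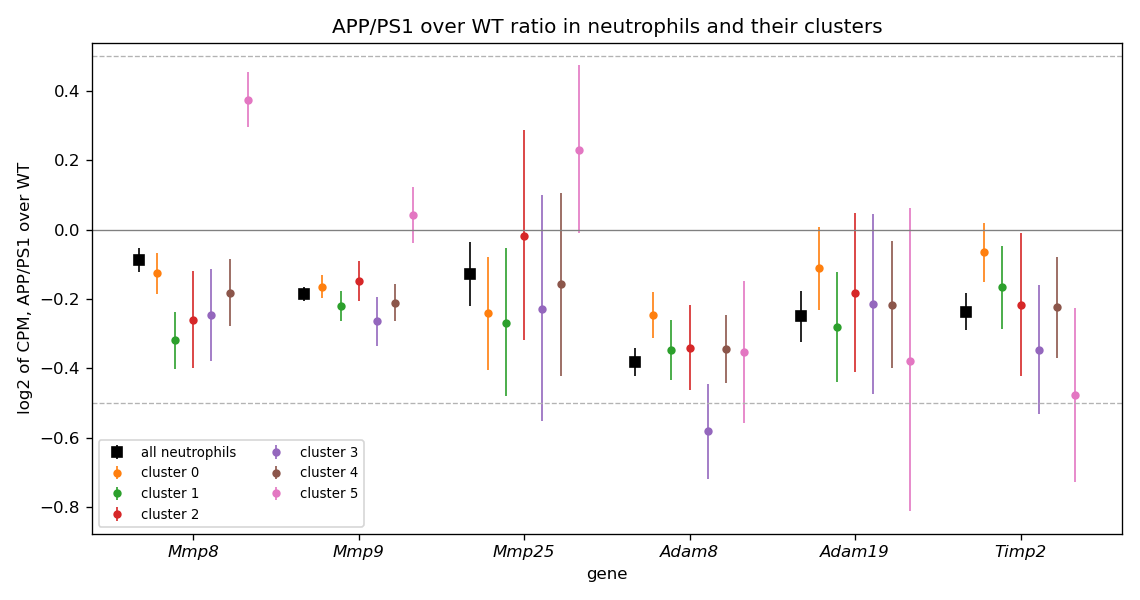
Log2 ratio of CPM, APP/PS1 over WT, of each gene in all neutrophils (black squares) and in clusters 0 to 5 (coloured points), with 95% intervals from counting error. Dashed lines mark 0.5 log2 in either direction. All squares lie below 0, and *Mmp8* in cluster 5 lies above it.

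Outside neutrophils, *Adam8* in classical monocytes stood at 59.3 CPM in the WT and 32.3 CPM in the APP/PS1 library, a log2 ratio of -0.88 (-1.04 to -0.72). This was past 0.5 log2, as were 3.25% of 7128 genes. *Adam8* stood there at 1.98 and 1.70 times the level that neutrophil RNA would give, with *S100a8* and *S100a9* at 6.59% and 5.42% of the neutrophil level. The part of neutrophil RNA in the ratio was not tested. *Mmp8* (-0.34) and *Mmp9* (-0.31) were lower there too. In nonclassical monocytes *Adam8* stood at 66.1 and 52.3 CPM, a ratio of -0.34 (-0.50 to -0.18). In T cells the ratio was -0.58 for *Adam8* and -0.64 for *Timp2*, and in basophils it was -0.54 for *Adam8*, each from under 200 UMIs in each library. In B cells each of the 6 genes had under 200 UMIs in each library. The ratio there was -1.91 for *Mmp25*, -1.70 for *Mmp8*, -1.41 for *Adam8*, -0.76 for *Mmp9*, -0.12 for *Timp2* and 0.20 for *Adam19*. *S100a8* and *S100a9* stood in B cells at 7.11% of the neutrophil level in the WT and 4.28% in the APP/PS1 library, and their part in these ratios was not tested.

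The 6 genes made up 95.3% of the neutrophil UMIs of 80 listed metalloproteinase and TIMP genes. Since the 6 were chosen with earlier results of these data known, this share describes the choice and is no finding about them. Of the other 74, 21 had no UMI, 41 had 1 to 199 and 12 had 200 or more in the kept cells. Among 5 of them that could be compared in neutrophils, 0 were over 0.5 log2 higher in the APP/PS1 library, where 3.22% of all genes were, and 1 was that much lower, where 2.44% of all genes were. That gene was *Adam17*, the sheddase of tumour necrosis factor, at -0.68 (-0.81 to -0.55), from 1052 WT and 890 APP/PS1 UMIs. *Adam15* stood at -0.28, *Adam10* at -0.01, *Adam30* at 0.02 and *Adamts10* at 0.17. *Adamts14*, a procollagen-processing protease, stood at 124 CPM in NK cells and at 0.429 CPM in neutrophils.

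Across 12 cell types and clusters in both libraries, 24 profiles in all, the genes most like each member by Pearson's r of log2(CPM + 1) among 10457 genes were given as a description, since profiles of a library share its depth and free RNA. *Mmp9* was most like *Cd63* (r = 0.99) and *Mgam* (0.99), *Mmp8* was most like *B230208H11Rik* (0.98) and *Anxa1* (0.97), and *Mmp25* was most like *Rflnb* (0.95). *Adam8* was most like *Ccdc189* (0.99), *Adam19* like *S100a6* (0.94) and *Timp2* like *Gm11714* (0.94). Between members, r was highest for *Mmp9* with *Adam8* (0.98) and lowest for *Mmp25* with *Timp2* (0.75).

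In mm10 (GENCODE M21), *Mmp8* lies at chr9:7558456-7568485 (+), *Mmp9* at chr2:164940780-164955850 (+), *Mmp25* at chr17:23628311-23645277 (-), *Adam8* at chr7:139978932-139992562 (-), *Adam19* at chr11:46055992-46147343 (+) and *Timp2* at chr11:118301069-118355740 (-). *Timp2* overlaps *Cep295nl* on the same strand, which had 75 UMIs in neutrophils, so the UMIs of the pair are less certain to assign. *Adam8* and *Adam19* have antisense partners, *Gm16201* with 164 and *Gm16033* with 320 UMIs. Of up to 10 neighbouring genes with at least 200 UMIs around each member, 0 were over 0.5 log2 apart between the libraries for 5 members, and 1 was for *Timp2*. Over all genes compared in neutrophils, 5.66% were. The neighbours lay 13.8 to 5688.5 kb from their member, so that some were not close.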

How the data were processed

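UMI counts of 2 libraries of blood neutrophils (10x Genomics, v3.0 kit) were used. The authors deposited raw counts per gene and cell, without normalization, and the submitters' processing notes name Cell Ranger 5.0.0 and mm10. The 6 genes and all gene lists were chosen with earlier results of these data known.

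Cells within the 5th to 95th percentile of genes and UMIs of their library and with at most 10% mitochondrial UMIs were kept. Doublets stayed in. Cells were clustered in Seurat 5.3.0 (R 4.3.3) on 2000 variable features, without metalloproteinase and TIMP genes, and 15 principal components at resolution 0.4. Neutrophils were clustered again after CCA integration, at the lowest resolution (0.3) giving at least 5 clusters of 200 cells. This rule and the rule for leaving mixed clusters unnamed were set after trial clusterings were seen. Named genes were the 6 members, the listed families, the 3 genes with the most similar profile and the nearest neighbours.

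UMIs were summed with SciPy 1.17.1 and given as CPM with exact Poisson intervals, ratios with exact conditional intervals and shares of cells with Clopper-Pearson intervals, all of them 95% intervals. The code for the intervals was tested on simulated counts with counting error only, which says nothing of the spread between pools. TMM factors came from edgeR 4.0.16 and doublet scores from scanpy 1.11.5. No test was made, with 1 library per genotype.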

Additional observations from a re-analysis of the deposited data

Results flagged for a closer look

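*Mmp8* had a log2 ratio of APP/PS1 over WT of 0.37 in the secondary-granule cluster (cluster 5), against -0.09 in all neutrophils, with both counting intervals on their own side of 0. In thinned neutrophils with 10 or more secondary-granule UMIs, *Mmp8* stood at 2848 CPM (2456 to 3286) in the WT and 3375 CPM (3073 to 3698) in the APP/PS1 library. These intervals, from 188 and 459 UMIs, overlap. In thinned neutrophils with no secondary-granule UMI it was lower in the APP/PS1 library, at 368 against 457 CPM. *Adam19* had a ratio of 0.80 in erythroid cells (22.2 CPM for the WT and 38.7 CPM for the APP/PS1 library, from 43 and 39 UMIs), against -0.25 in all neutrophils. The level that neutrophil RNA would give for *Adam19* in erythroid cells was 24.2 CPM in the WT and 29.3 CPM in the APP/PS1 library. Neither difference between cell groups was tested, since there was 1 library per genotype.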

How the results depend on the processing

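All 6 genes stayed lower in APP/PS1 than in WT neutrophils, with 0 of 6 over 0.5 log2 apart, under every alternative run. The share of all genes that stayed lower was not computed. Of 206 values from alternative runs, 80 moved outside the counting interval of the main run, or beyond the bound set for counts, and 126 did not. With TMM scaling the log2 ratio was -0.13 for *Mmp8*, -0.23 for *Mmp9* and -0.43 for *Adam8*, and with mitochondrial, ribosomal protein, haemoglobin, *S100a8* and *S100a9* UMIs left out of the total it was -0.13, -0.23 and -0.43. As a mean over cells, *Mmp8* stood at -0.18. Without the platelet-gene and secondary-granule clusters, *Mmp8* stood at -0.26 and *Mmp25* at -0.23. With genes of at least 20 UMIs, 1333 of 10243 were over 0.5 log2 apart, against 348 of 6148. Without thinning, the share of WT and APP/PS1 neutrophils with a UMI was 56.4% and 51.2% for *Mmp8*, 95.7% and 93.7% for *Mmp9*, 17.7% and 16.6% for *Mmp25*, 64.7% and 57.2% for *Adam8*, 28.1% and 26.0% for *Adam19*, and 42.3% and 39.1% for *Timp2*.

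With the 8% of cells of highest doublet score removed, *Mmp25* in T cells was 33.7 (WT) and 16.0 (APP/PS1) times the level of neutrophil RNA, *Timp2* in NK cells 11.7 and 17.9 times, *Adam19* in T cells 11.3 and 6.10 times, in B cells 4.31 and 10.6 times and in classical monocytes 7.18 and 6.63 times, and *Mmp8* in classical monocytes 7.86 and 5.43 times, and the cause was not tested. The log2 ratio of neutrophils over monocytes reached 4.78 for *Mmp9*, 4.62 for *Mmp25* and 3.72 for *Adam8* with these cells removed, 4.31, 4.21 and 3.42 with 30 principal components, and 4.20, 4.17 and 3.53 with TMM scaling, which gave 3.11 for *Mmp8* and 3.08 for *Timp2* and raised *Adam19* by the same factor. All 6 genes stayed over 1 log2 unit higher in neutrophils under each of these. Leaving out cluster 7, an alternative chosen after seeing the data, gave -0.09 for *Mmp8* and -0.38 for *Adam8* between the libraries in neutrophils. In the secondary-granule cluster *Adam8* stood at 0.05 with TMM scaling, 0.22 without the abundant genes and 0.02 as a mean over cells, against -0.08, so its direction there is not fixed. Without the abundant genes, *Mmp9* also passed 1 log2 unit there, so that 3 genes rather than 2 did. No paired analysis was possible because each genotype has 1 library. The depth of 1 pool per genotype limits every comparison of genotypes to these libraries.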
